A study of Mus musculus with 16 samples.

Results

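The 16 RNA libraries of mouse heart tissue in this series differ by orders of magnitude in how much atrial muscle RNA they hold, also within the genotypes the study set out to compare. Libraries were chosen by their own measured level of Myl7, the regulatory myosin light chain of atrial muscle, given in CPM (the count divided by the library's total, times 1000000). Those at or above 100 CPM are called rich and those below 10 CPM poor, which took in 13 of the 16 libraries, 7 rich and 6 poor. The 3 libraries between the limits were left out of the tests. The mice were wild type, Fgf21 knockout (Fgf21 KO), Clpp knockout (Clpp KO) or knockout of both genes (double KO), with 4 libraries each and all on normal chow. Per the labels, Clpp was removed from the whole body with a Cre recombinase under the β-actin promoter, and the double KO came from crossing mice with floxed alleles of both genes to the same Cre. They do not say how the Fgf21 KO was made. The labels call the tissue cardiac without naming a chamber, and give neither age, sex nor strain. The libraries of a group are numbered 1 to 4 and are not stated to be separate animals. The p-values therefore speak of the spread from library to library, some of which may be technical.

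The heart's upper chambers receive blood and its lower chambers pump it out, and their muscle cells differ in contractile proteins, ion channels and secreted hormones. Atrial muscle uses the myosin light chains encoded by Myl7 and Myl4, where ventricular muscle uses Myl2 and Myl3. It also makes sarcolipin, the small inhibitor of the calcium pump encoded by Sln, and stores and releases atrial natriuretic peptide, encoded by Nppa. Around and between the atria lie fat, the large veins, valves, nerves and the sinoatrial node. In bulk tissue, fewer cells of a kind and less RNA per cell cannot be told apart.

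The stretch upstream of each gene start is shown for 4 genes that carry the results: Myl7, which set the classes, Nppa and Mybphl, which went with it, and Bmp10, which did not do so in every library. Each is the 250 bases before the start in RefSeq's annotation of GRCm38.p6, read 5′ to 3′ on the gene's strand. Of the 6 genes looked up, these and Myl4 had an entry. Capitals mark any match on either strand to the letters bound by T-box factors (AGGTGT), nuclear receptors (AGGTCA) or GATA factors (AGATAA), the MEF2 box or the CArG box; no 2 matches overlap. The Myl7 window is chr11:5898783-5899032 on the minus strand, the Nppa window chr4:148000472-148000721 on the plus strand, the Mybphl window chr3:108364661-108364910 on the plus strand and the Bmp10 window chr6:87428744-87428993 on the plus strand.
Myl7: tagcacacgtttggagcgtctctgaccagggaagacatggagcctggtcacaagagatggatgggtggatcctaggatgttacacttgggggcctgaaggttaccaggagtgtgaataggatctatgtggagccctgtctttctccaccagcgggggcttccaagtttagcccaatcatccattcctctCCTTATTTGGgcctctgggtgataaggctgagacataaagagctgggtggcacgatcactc
Nppa: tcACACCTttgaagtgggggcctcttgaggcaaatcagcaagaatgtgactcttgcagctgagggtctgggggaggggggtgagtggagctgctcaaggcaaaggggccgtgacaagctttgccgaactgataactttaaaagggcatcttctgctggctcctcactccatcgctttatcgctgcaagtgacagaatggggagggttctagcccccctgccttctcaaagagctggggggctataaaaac
Mybphl: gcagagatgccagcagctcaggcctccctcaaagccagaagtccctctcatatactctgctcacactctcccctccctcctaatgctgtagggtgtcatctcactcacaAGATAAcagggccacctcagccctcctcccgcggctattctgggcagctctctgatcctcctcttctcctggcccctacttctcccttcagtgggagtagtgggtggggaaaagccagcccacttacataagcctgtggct
Bmp10: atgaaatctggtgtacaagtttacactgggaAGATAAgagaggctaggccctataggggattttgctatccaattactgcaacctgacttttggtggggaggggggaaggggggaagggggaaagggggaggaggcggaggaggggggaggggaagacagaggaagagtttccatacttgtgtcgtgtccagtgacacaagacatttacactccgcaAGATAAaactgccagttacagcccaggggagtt
The Myl7 window held 1 CArG box, the Nppa window 1 AGGTGT on the opposite strand, the Mybphl window 1 AGATAA and the Bmp10 window 2. Of all 32851 windows of that length in the table, 1.47% held a CArG box, 11.8% AGGTGT, 9.99% AGATAA, 14.0% AGGTCA and 0.508% a MEF2 box. These are letter matches and nothing more.

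Myl7 (ENSMUSG00000020469, chromosome 11, positions 5896637 to 5898782 of GRCm38) reached 3161 and 1798 CPM in wild-type replicates 2 and 4, against 1.45 and 1.40 in replicates 1 and 3. In Fgf21 KO replicates 1 to 4 it stood at 55.4, 194, 52.2 and 587 CPM, in Clpp KO at 50.0, 434, 129 and 2.75, and in double KO at 197, 1.06, 0.257 and 0.195. The rich class is thus wild-type replicates 2 and 4, Fgf21 KO replicates 2 and 4, Clpp KO replicates 2 and 3, and double KO replicate 1. The poor class is wild-type replicates 1 and 3, Clpp KO replicate 4, and double KO replicates 2, 3 and 4. Just inside the upper limit stood Clpp KO replicate 3 at 129 CPM and just outside it Fgf21 KO replicate 1 at 55.4. At the lower limit, the nearest libraries were Clpp KO replicate 4 at 2.75 CPM inside and Clpp KO replicate 1 at 50.0 outside. Wild type, Clpp KO and double KO thus each held libraries of both classes, and Fgf21 KO held none that was poor.

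The other 3 marker genes given for these classes followed Myl7, and are described without a test. Nppa ran at 582 to 10684 CPM in the rich libraries (median 1805) and 83.6 to 168 CPM in the poor ones (median 128). Sln ran at 29.0 to 823 CPM in the rich libraries (median 92.7) and 0 to 0.438 CPM in the poor ones (median 0.212), and Myl4 at 169 to 2940.5 CPM in the rich libraries (median 474) and 0.735 to 3.48 CPM in the poor ones (median 2.20). In all 3 the classes were apart, and in all 3 the libraries between the limits lay between them: Nppa at 282, 451 and 429 CPM in Fgf21 KO replicates 1 and 3 and Clpp KO replicate 1, Sln at 11.2, 13.4 and 12.8, Myl4 at 58.0, 67.7 and 65.5. These 3 genes were given together with Myl7 as markers of the classes. Their agreement with it describes the libraries and is no separate check of the label. Nppa, which stressed ventricular muscle can also make, was the one with a high level left in the poor libraries.

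**Figure D1:**
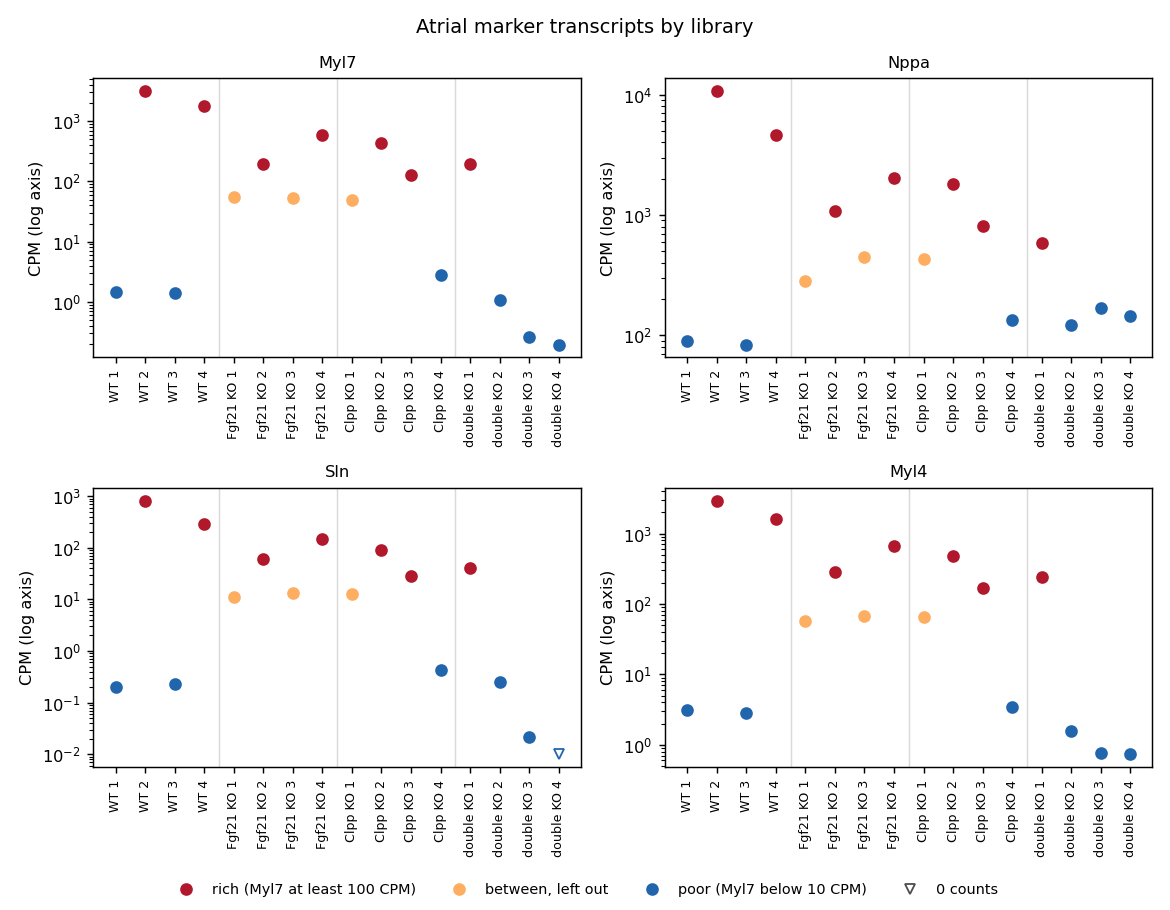
Level of the 4 marker genes in each of the 16 libraries, in CPM on a log axis, with 1 point per library; red is rich, orange between the limits, blue poor, and an open triangle stands for 0 counts. For every marker the lowest red point lies above the highest blue one, for Myl7 at 129 against 2.75 CPM and for Nppa at 582 against 168 CPM.

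Library totals ran from 36260545 to 51820727 counts. The lowest belonged to the rich wild-type replicates 2 and 4, at 36260545 and 36323488, against 45640955 and 48608884 in the poor wild-type replicates 1 and 3. The part of depth in the results was not tested. Clpp counts were 36.1 to 58.0 CPM in the 8 libraries with an intact Clpp gene and 5.78 to 7.50 in the 8 without, and no library labelled as lacking Fgf21 held a count of it. Fgf21 had 0 to 5 counts in the wild-type libraries and 6 to 28 in Clpp KO, so that its absence checks the labels only weakly. Wild-type replicates 1 and 3, both poor, were the closest pair of the series but differed beyond sampling noise (median chi-square per gene 0.857, against 0.455 from counting noise alone), and were kept as 2 libraries. Wild-type replicate 2, a rich library, stood apart in holding 4.19 CPM from 4 Y-linked genes, where every other library held 47.5 to 81.7 CPM. The results below rest in part on these 3 libraries and are also given without them where that changes a call.

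Differences over all genes were fitted with edgeR's quasi-likelihood test, with genotype as covariate; fold changes are on the log2 scale after TMM scaling (trimmed mean of M-values), and p-values were adjusted by the Benjamini-Hochberg method across the 14541 genes tested. A gene is called where its adjusted p is under 0.05. The SE printed after ± is the absolute fold change divided by the square root of the test's F statistic. It was thus derived from the test and not estimated separately. The classes were drawn from Myl7 in the same libraries, so a call says that a gene went with Myl7 by more than the spread between libraries, and nothing about a treatment or genotype. The 2 rich Fgf21 KO libraries have no poor counterpart. They add to the filter on low counts, the scaling and the estimate of spread, and not to the contrast of the classes. Of all genes tested, 198 were called (1.36%), 197 of them higher in the rich libraries (1.35%) and 1 lower (0.00688%). All 7 rich libraries stood above all 6 poor ones in 202 genes (1.39%) and below them in 22 (0.151%), and 135 of the called genes were apart in this way. Without the 4 markers 194 genes were called, 193 of them higher. The difference was thus nearly one-sided, while the median over all genes tested was −0.01.

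Of the gene lists examined, that of atrial muscle held the most called genes even without the 4 markers. Of the 12 such genes listed and tested, 9 were called higher, with a median of 1.85, and none was called lower. Outside the markers, the largest fold change among called genes whose classes did not overlap belonged to Mybphl (ENSMUSG00000068745, chromosome 3, positions 108364911 to 108380057), an atrial member of the myosin binding protein family that was not on the list. Mybphl stood at 325 and 165 CPM in the rich wild-type libraries, 29.7 and 83.7 in Fgf21 KO, 73.3 and 23.7 in Clpp KO and 32.1 in double KO. In the poor libraries it was 0.175 and 0.247 CPM in wild type, 0.511 in Clpp KO and 0.230, 0 and 0.0865 in double KO. Every rich library was thus far above every poor one, and Mybphl rose by 8.38 ± 0.65 (SE, adjusted p = 0.000312).

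Fgf12, a fibroblast growth factor homologue that stays in the cell and binds sodium channels, ran at 5.29 to 45.3 CPM in the rich libraries (median 13.7) and 0.0857 to 0.389 CPM in the poor ones (median 0.270) and rose by 5.55 ± 0.47 (SE, adjusted p = 0.000336). Dkk3, a secreted protein of the dickkopf family, ran at 49.8 to 384 CPM in the rich libraries (median 111) and 1.05 to 5.23 CPM in the poor ones (median 1.97) and rose by 5.42 ± 0.59 (SE, adjusted p = 0.00163). Neither gene overlapped between the classes. Sbk3 and Sbk2, neighbouring kinase genes of the SH3-binding domain family, rose by 4.08 ± 0.55 (SE, adjusted p = 0.00565) and 3.00 ± 0.41 (SE, adjusted p = 0.00565), with rich libraries at 23.7 to 216 and 9.75 to 118 CPM. Stard10, which encodes a lipid transfer protein, rose by 2.53 ± 0.36 (SE, adjusted p = 0.00687).

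Tbx5, a T-box transcription factor that is needed for the atria and is also expressed in the left ventricle, rose by 1.17 ± 0.18 (SE, adjusted p = 0.00565). It ran at 18.4 to 86.3 CPM in the rich libraries (median 38.0) and 9.70 to 18.4 CPM in the poor ones (median 11.0), so that the ranges met without overlap. The other 3 listed genes were not called. Nr2f1 and Nr2f2, nuclear receptors of atrial identity, stood at 0.69 ± 0.19 (SE, adjusted p = 0.0991) and 0.43 ± 0.17 (SE, adjusted p = 0.249). Kcna5, a potassium channel gene of atrial repolarisation, stood at −0.10 ± 0.19 (SE, adjusted p = 0.821), with 12.2 to 43.3 CPM in rich and 10.3 to 37.8 in poor libraries. Clu, which encodes the chaperone clusterin, rose by 0.83 ± 0.17 (SE, adjusted p = 0.0381). The Clu call ended in 10 of the 13 fits that left out 1 library, all but those without Clpp KO replicate 3 or double KO replicate 1 or 2, with adjusted p up to 0.201.

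Of 19 channel and calcium handling genes apart from Sln, 3 were called higher and none lower, where 1.36% of all genes were called, and the list median was 0.03. Cacna1h, a T-type calcium channel gene, ran at 13.4 to 123 CPM in the rich libraries (median 33.5) and 4.93 to 7.12 CPM in the poor ones (median 6.14) and rose by 2.34 ± 0.34 (SE, adjusted p = 0.00776). Kcnj3, a subunit of the potassium channel opened by acetylcholine, ran at 38.0 to 176 CPM in the rich libraries (median 63.3) and 13.9 to 41.7 CPM in the poor ones (median 19.4) and rose by 1.15 ± 0.22 (SE, adjusted p = 0.027); the call ended without wild-type replicate 1, 2 or 3, Clpp KO replicate 2 or 4, or double KO replicate 1 or 3 (adjusted p up to 0.109). Cacna2d2, an auxiliary calcium channel subunit gene chosen after its values were seen, ran at 6.50 to 30.3 CPM in the rich libraries (median 10.5) and 0.514 to 1.75 CPM in the poor ones (median 1.01). It rose by 3.26 ± 0.22 (SE, adjusted p = 3.3e-05), and its adjusted p stayed at or below 0.000364 whichever single library was left out.

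Genes of the sinoatrial node, the heart's pacemaker in the right atrial wall, and of the conduction system gave 4 of 14 called higher, Shox2, Cpne5 and Rgs6 among them, with a list median of 0.96. The share called over all genes tested was 1.36%. Shox2, a transcription factor of the node and the pulmonary veins, ran at 0.521 to 4.87 CPM in the rich libraries (median 1.10) and 0.0649 to 0.411 CPM in the poor ones (median 0.225) and rose by 2.78 ± 0.37 (SE, adjusted p = 0.00237). Cpne5, which encodes a copine, rose by 3.00 ± 0.49 (SE, adjusted p = 0.0125) and Rgs6, a regulator of G protein signalling, by 0.74 ± 0.15 (SE, adjusted p = 0.027). The call of Cpne5 ended without wild-type replicate 1 or 3 (adjusted p up to 0.0694), and that of Rgs6 without any of the 4 wild-type libraries or Clpp KO replicate 2 or 4 (up to 0.134). Hcn4, the main pacemaker channel gene of the node, stood at 0.46 ± 0.23 (SE, adjusted p = 0.366), Tbx3, a repressor that keeps nodal identity, at 0.36 ± 0.20 (SE, adjusted p = 0.413), and Gja5, the connexin of atrial and conducting muscle, at 1.50 ± 0.37 (SE, adjusted p = 0.0884). None of these 3, chosen after their values were seen, was called.

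Bmp10 encodes a secreted growth factor that in the adult heart is made mainly by right atrial muscle. Of 9 factors of the pulmonary veins and of left or right atrial identity tested, 2 were called higher, Bmp10 and Shox2. Over all genes tested the share called was 1.36%. Bmp10 (ENSMUSG00000030046, chromosome 6, positions 87428994 to 87437677) was at 449 and 132 CPM in the rich wild-type libraries, 124 and 99.0 in the rich Clpp KO libraries and 6.80 in the rich double KO library. In Fgf21 KO replicates 2 and 4 it was at 84.3 and 0.126 CPM. The poor libraries ran from 0.0214 to 0.462 CPM, so Fgf21 KO replicate 4 fell among them although only wild-type replicates 2 and 4 held more Myl7. Bmp10 rose by 8.94 ± 1.44 (SE, adjusted p = 0.0163). The call ended without wild-type replicate 1, at an adjusted p of 0.0714.

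Among the libraries between the limits, Bmp10 had 0 counts in Fgf21 KO replicate 1 and stood at 45.5 CPM in Fgf21 KO replicate 3 and 7.90 in Clpp KO replicate 1, although Myl7 was close in all 3. What part of an atrium each piece of tissue came from was not tested.

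Set against Myl7 itself, the markers varied far less than Bmp10 did. Per 1000 Myl7 counts in the 7 rich libraries, Myl4 counts ran from 894 to 1454, a spread of 1.63-fold, while Myl7 itself spanned 129 to 3161 CPM. The same spread was 1.97-fold for Sln, 2.01-fold for Mybphl, 2.43-fold for Nppa and 2.87-fold for Fgf12. It was 30.9-fold for Hamp and reached 3592-fold for Bmp10, from 0.214 in Fgf21 KO replicate 4 to 769.5 in Clpp KO replicate 3. For Sbk2, Sbk3, Stard10 and Kcnj3 the ratio was lowest in wild-type replicate 4, at 17.3, 32.4, 87.8 and 35.2 counts per 1000 Myl7 counts, against highest values of 100.1, 266, 283 and 295 in the rich libraries. Counts were not divided by transcript length, so these ratios compare libraries and not the abundance of one gene with another.

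**Figure D2:**
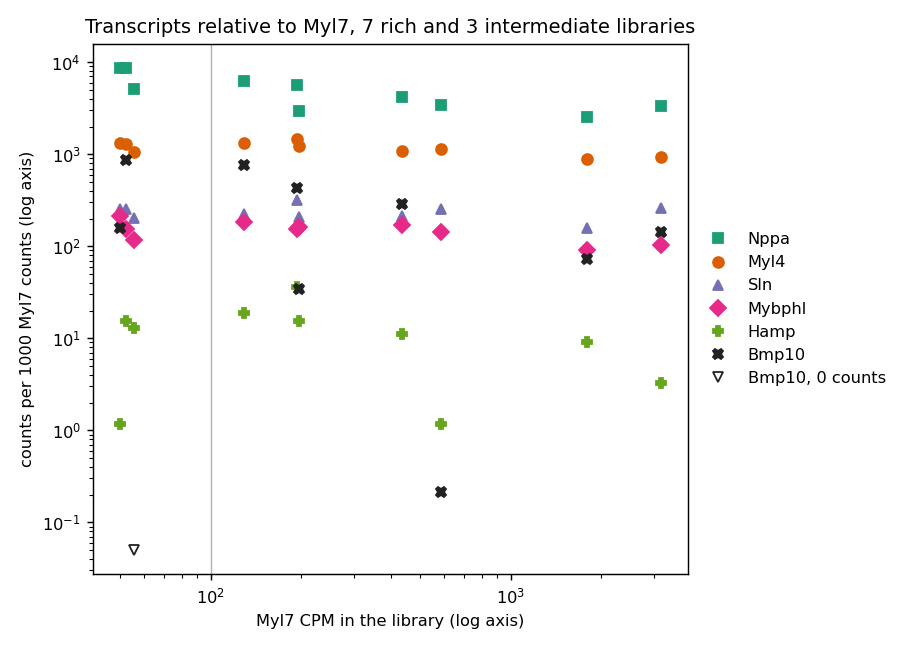
Counts of 6 transcripts per 1000 Myl7 counts against Myl7 level, both on log axes, in the 7 rich libraries (right of the grey line at 100 CPM) and the 3 libraries between the limits; each point is 1 library and the open triangle marks 0 Bmp10 counts. Over these 10 libraries Myl4, Sln and Mybphl vary least, Nppa runs from 2569.9 to 8639 with its highest values between the limits, and Bmp10 falls from up to 872 to 0.214 and 0 in single libraries.

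Other genes with large fold changes were Hamp, Cilp2 and Lmntd1. Hamp encodes hepcidin, the peptide that controls iron export and is made in liver and at low level in heart. Hamp had 4 counts in all 6 poor libraries together and 1784 in the 7 rich ones, at 0.679 to 16.5 CPM. The ratio of pooled counts, on totals scaled by TMM, was 328 (95% exact counting interval 128 to 1206, which covers counting error only), and the adjusted p was 0.00123. Of the 31-base words in Hamp transcripts, 33.7% also occur in its neighbour copy Hamp2, which held at most 0.469 CPM, so how reads were split between the pair is uncertain. Cilp2, a cartilage matrix gene, ran at 2.57 to 89.7 CPM in the rich libraries (median 8.52) and 0 to 0.161 CPM in the poor ones (median 0.120) and rose by 6.95 ± 0.91 (SE, adjusted p = 0.00535). Lmntd1, which encodes a protein with a lamin tail domain, ran at 2.95 to 53.8 CPM in the rich libraries (median 10.9) and 0.151 to 0.852 CPM in the poor ones (median 0.528) and rose by 4.47 ± 0.52 (SE, adjusted p = 0.00212).

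Hamp is also a liver product, as are Hp and Ahsg, the latter encoding the plasma protein fetuin-A and chosen after its values were seen. Ahsg ran at 7.99 to 90.8 CPM in the rich libraries (median 11.6) and 1.47 to 7.47 CPM in the poor ones (median 3.84) and rose by 2.30 ± 0.24 (SE, adjusted p = 0.000577), with no overlap. Alb encodes albumin, the main plasma protein of the liver, and its relation to the classes turned with genotype. It stood at 1.13 and 1.82 CPM in the rich wild-type libraries and at 39.5 and 39.2 in the poor ones. In Clpp KO it was at 35.1 and 18.8 CPM in the rich libraries and 0.316 in the poor one, and in double KO at 101 against 1.08, 0.0428 and 0.0216. Rich libraries were thus lower in wild type and higher in both of these knockouts, and in Fgf21 KO replicates 2 and 4 Alb was at 0.0459 and 0.126 CPM. Alb was not called over all genotypes (edgeR adjusted p = 0.434). It was called higher in the knockout groups alone (adjusted p = 0.0168), as was Ttr, the liver gene of transthyretin, chosen after its values were seen (adjusted p = 0.0168). In wild type alone both were called lower (adjusted p = 0.00921 and 0.0115), and DESeq2 called Alb higher over all genotypes (adjusted p = 0.0194). Hamp and Ahsg were highest in wild-type replicates 4 and 2, where Alb was at 1.82 and 1.13 CPM. In Clpp KO replicate 2 and double KO replicate 1, Alb was at 35.1 and 101 CPM. Hamp was at 4.84 and 3.06 CPM there and Ahsg at 15.6 and 11.6, all above the poor libraries of the same genotype. The part of liver RNA in the Hamp, Hp and Ahsg results was not tested.

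Receptor genes that were chosen after their values were seen added Rxfp1, the relaxin receptor, at 3.70 ± 0.43 (SE, adjusted p = 0.0015), and Vdr, the vitamin D receptor, at 3.44 ± 0.58 (SE, adjusted p = 0.0129). Rxfp1 ran at 2.20 to 24.5 CPM in the rich libraries (median 6.76) and 0.238 to 0.699 CPM in the poor ones (median 0.445), with no overlap. The Vdr call ended without wild-type replicate 1 or 3 or Clpp KO replicate 4 (adjusted p up to 0.0924).

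None of 15 ventricular genes was called, with a median of −0.40; 13 of the fold changes were negative. Irx4, a ventricular transcription factor, stood at −0.78 ± 0.18 (SE, adjusted p = 0.053) and Mpped2 at −0.83 ± 0.23 (SE, adjusted p = 0.116). DESeq2 called both lower (adjusted p = 0.00271 and 0.0147), as did the fit of Myl7 as a continuous covariate (0.00221 and 0.0176) and wild type alone (0.0206 and 0.0112). In the knockout groups alone neither passed (adjusted p = 0.638 and 0.784). Myl2, the ventricular counterpart of Myl7, ran at 3958 to 8104 CPM in the rich libraries (median 5990.2) and 4449.7 to 7784 CPM in the poor ones (median 5459) and stood at −0.34 ± 0.15 (SE, adjusted p = 0.307). On library totals the classes thus overlapped, with the higher median in the rich one. On the TMM scale of the fold changes all rich libraries lay below all poor ones, at 3672 to 5916 in the rich libraries and 5969.8 to 6849 in the poor ones. Myl3, the other ventricular light chain, chosen after its values were seen, was apart in the same way, at 1509 to 3163 in the rich libraries and 3296 to 3879 in the poor ones (−0.45 ± 0.18 (SE, adjusted p = 0.254)), and these were 2 of the 15 ventricular genes, against 0.151% of all genes. The direction of Myl2 between the classes therefore depended on the scaling. None of 16 sarcomere and general muscle genes was called either, with a median of −0.22, and the lowest p belonged to Pln, the calcium pump inhibitor phospholamban, at −0.56 ± 0.22 (SE, adjusted p = 0.258). With unadjusted p under 0.05, 679 genes were lower and 1555 higher in the rich libraries, and DESeq2 called 649 genes, 604 higher and 45 lower.

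The mRNAs encoded in mitochondrial DNA, which carry subunits of the respiratory chain, made up 25.5 and 28.9% of all counts in wild-type replicates 2 and 4 and 39.1 and 39.4% in replicates 1 and 3. In Clpp KO the share was 57.6 and 60.0% in the rich libraries and 57.9% in the poor one. In double KO it was 58.6% in the rich library and 56.1, 59.7 and 60.8% in the poor ones. The classes were apart in wild type and not in Clpp KO or double KO. In Fgf21 KO, which had no poor library, the share was 38.5 and 38.8% in the rich replicates 2 and 4. It was 29.2 and 37.8% in replicates 1 and 3, between the limits. The mean of the within-genotype differences was −3.80 percentage points (exact permutation of classes within genotypes, two-sided p = 0.194, smallest possible 0.0139). In the knockouts alone it was 0.325 points (exact permutation p = 0.917), and in wild type alone −12.0 points (exact permutation p = 0.333, the smallest 2 against 2 can give). With a single Myl7 limit it was −4.04 points at 10 CPM (exact permutation p = 0.156) and −1.39 at 100 CPM (exact permutation p = 0.544). None of the 13 mRNAs was called singly, with a list median of −0.42, nor was any of 37 nuclear complex I subunits (median −0.11) or 32 fatty acid oxidation genes (median −0.31).

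Of 12 genes of white fat or fat in general, 5 were called higher and none lower, where 1.36% of all genes were called. They were Adipoq, Cidec, Cfd, Plin1 and Car3. The median log2 difference of the list was 2.35 in wild type, 0.99 in Clpp KO and 0.32 in double KO, with 10, 9 and 8 of 12 genes positive. Adipoq, which encodes the fat hormone adiponectin, reached 14.6 CPM in wild-type replicate 2 and 28.8 in replicate 4. It stood at 1.26 and 2.89 in Fgf21 KO replicates 2 and 4, and at 0.536, 0.232 and 0.595 in the other rich libraries. Between the limits, it was at 0.614 and 0.0637 CPM in Fgf21 KO replicates 1 and 3. In Clpp KO replicate 1, also between the limits, it was at 1.55 CPM, above both rich Clpp KO libraries. In the poor libraries it ran from 0 to 0.219 CPM. The classes did not overlap, and Adipoq rose by 5.91 ± 0.79 (SE, adjusted p = 0.00412); the call ended without wild-type replicate 1 (adjusted p = 0.051). Cidec and Plin1, which encode proteins of fat droplets, rose by 6.93 ± 1.08 (SE, adjusted p = 0.0116) and 5.30 ± 0.92 (SE, adjusted p = 0.0207), and Car3, carbonic anhydrase 3, by 4.49 ± 0.64 (SE, adjusted p = 0.00879). Cfd, which encodes adipsin, rose by 6.11 ± 1.15 (SE, adjusted p = 0.0334). The calls of Cidec, Plin1 and Cfd ended without wild-type replicate 1 or 3, and that of Cfd also without double KO replicate 3 or 4, with adjusted p up to 0.0929, 0.167 and 0.201. Cidec passed the filter on low counts in 7 of these 13 fits. Cidec, Plin1, Cfd and Car3 too were higher in Clpp KO replicate 1 than in both rich Clpp KO libraries. In Fgf21 KO replicates 1 and 3 they were lower than in replicates 2 and 4. With a single Myl7 limit of 100 CPM the calls of all 5 fat genes ended.

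The summed level of the fat list ran from 509.7 to 2034 CPM in the rich libraries against 538 to 1019 in the poor ones. The sums overlapped, and those of the rich Clpp KO and double KO libraries, 509.7, 634 and 579.8 CPM, lay within or below the range of the poor ones; the list includes genes that vessel and muscle cells also express. Without wild-type replicates 2 and 4 the adjusted p was 0.189 for Adipoq and 0.364 for Plin1. None of 7 brown fat genes was called (median −0.07). Ucp1, the uncoupling protein that defines brown fat, was too low for the test and stood at 29.9 CPM in wild-type replicate 4, 3.75 in wild-type replicate 2, 2.34 in Fgf21 KO replicate 4 and at most 0.0657 in the other 10 libraries of either class. Between the limits, Ucp1 counts per 1000 Myl7 counts were 40.0 in Clpp KO replicate 1, and 0.396 and 0 in Fgf21 KO replicates 1 and 3. The highest such ratio in a rich library was 16.6, in wild-type replicate 4. The part of attached fat in any other result was not tested.

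**Figure D3:**
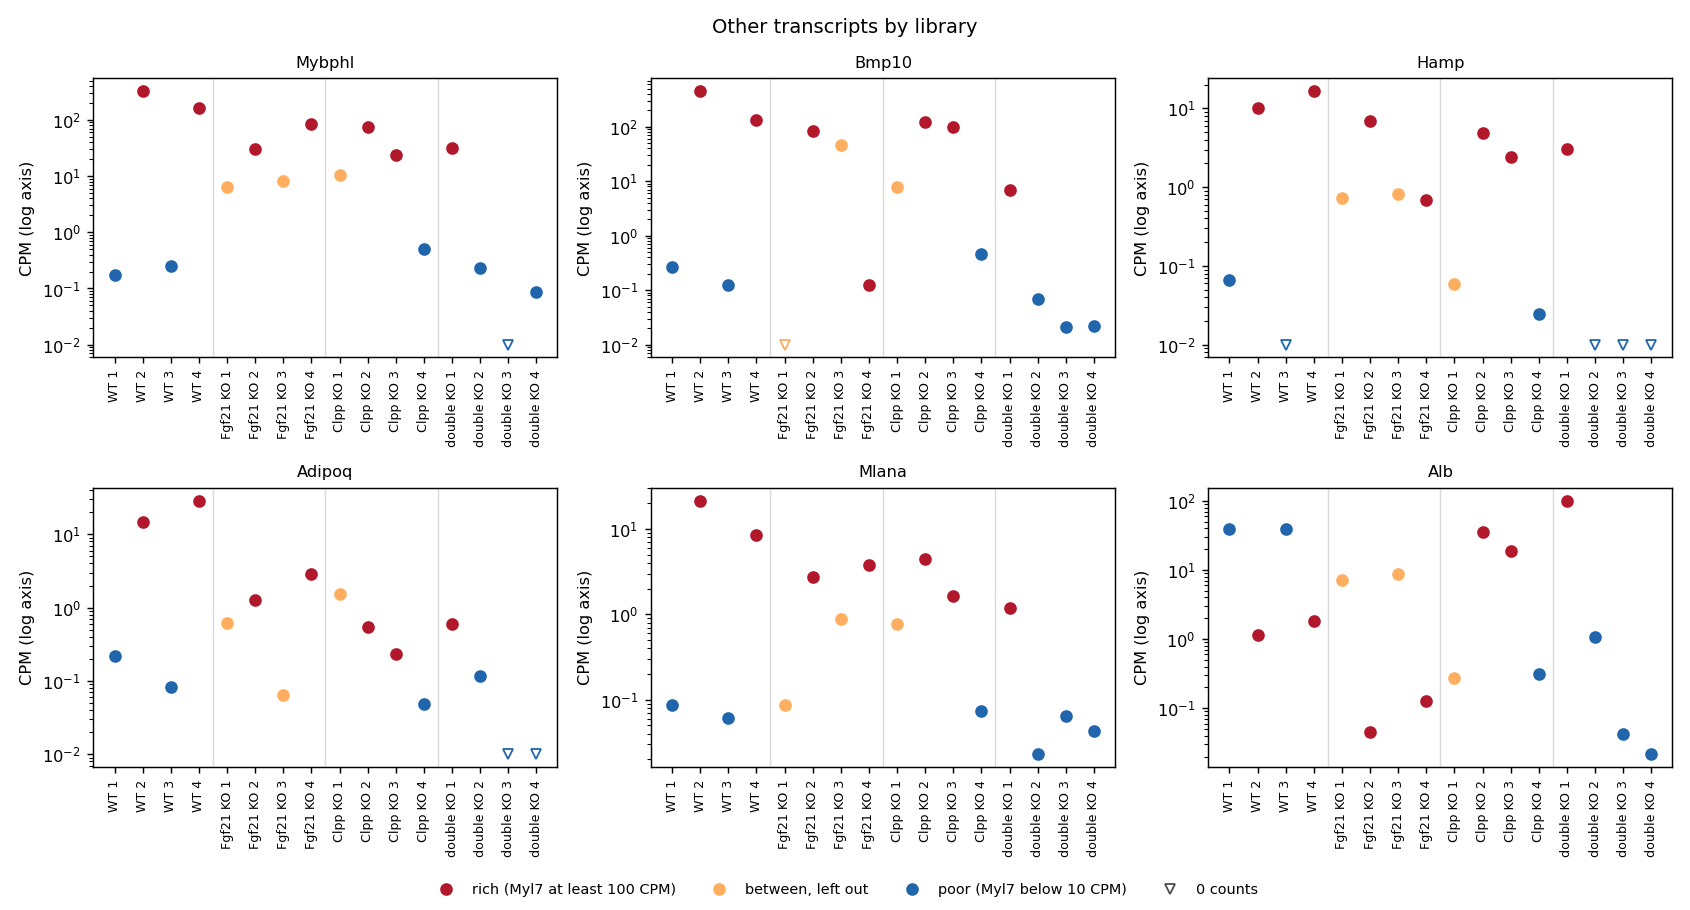
Levels of 6 transcripts in each library, in CPM on log axes, with the classes coloured as for the markers and open triangles for 0 counts. Mybphl, Hamp, Adipoq and Mlana separate all red points from all blue ones, Bmp10 fails in Fgf21 KO replicate 4 at 0.126 CPM, and the liver transcript Alb is lower in the rich than in the poor libraries of wild type and higher in those of Clpp KO and double KO.

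Melanocytes occur in the atria and valves of mice, and Mlana encodes a protein of their pigment granules. Mlana was at 21.5 and 8.40 CPM in rich wild-type, 2.73 and 3.75 in Fgf21 KO, 4.42 and 1.64 in Clpp KO and 1.19 in double KO libraries, against at most 0.0876 in the poor ones. Among the libraries between the limits it was at 0.892 CPM in Fgf21 KO replicate 3 and 0.777 in Clpp KO replicate 1, but at 0.0877 in Fgf21 KO replicate 1, close to the highest poor library. Per 1000 Myl7 counts it ran from 1.58 to 17.1 over these 10 libraries. Mlana rose by 6.05 ± 0.48 (SE, adjusted p = 0.000109) with no overlap between the classes, but it was the only one of 5 melanocyte genes tested to be called: Dct, an enzyme of pigment synthesis chosen after its values were seen, stood at 0.52 ± 0.19 (SE, adjusted p = 0.213). The summed melanocyte list ran from 21.2 to 69.1 CPM in the rich libraries against 15.8 to 36.0 in the poor ones.

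Schwann cell and nerve genes gave 3 of 13 called higher and 13 positive fold changes, with a median of 0.67. Over all genes tested, 1.36% were called and the median was −0.01. Mbp, which encodes myelin basic protein, rose by 1.20 ± 0.25 (SE, adjusted p = 0.0372), and S100b, a calcium-binding protein of glia, by 1.06 ± 0.22 (SE, adjusted p = 0.0334). The Mbp call ended in 10 of 13 fits that left out 1 library, all but those without Clpp KO replicate 3 or 4 or double KO replicate 2 (adjusted p up to 0.182). That of S100b ended in 8, all but those without an Fgf21 KO library, Clpp KO replicate 3 or 4 or double KO replicate 2 (adjusted p up to 0.184). The summed list ran from 25.5 to 156 CPM in the rich libraries against 19.9 to 42.5 in the poor ones. Mbp ran at 2.03 to 20.7 CPM in the rich libraries (median 5.08) and 1.25 to 3.72 CPM in the poor ones (median 1.94).

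Connective tissue genes leaned the same way by less. All 14 fibroblast genes and all 32 collagen and matrix genes tested had positive fold changes, with medians of 0.96 and 0.72, and 3 of each list were called. The median over all genes tested was −0.01, and 1.36% of them were called. Mfap5, Pi16 and Dpt, genes of fibroblasts around vessels and in the outer wall, rose by 1.27 ± 0.23 (SE, adjusted p = 0.0214), 1.10 ± 0.22 (SE, adjusted p = 0.0354) and 1.05 ± 0.23 (SE, adjusted p = 0.0439). Cilp, a matrix protein of heart fibroblasts, rose by 0.99 ± 0.12 (SE, adjusted p = 0.00163), the proteoglycan gene Bgn by 0.96 ± 0.18 (SE, adjusted p = 0.0228) and Loxl1, which cross-links elastic fibres, by 0.72 ± 0.15 (SE, adjusted p = 0.0381). Col1a1, the main chain of type I collagen, chosen after its values were seen, was not called, at 1.13 ± 0.32 (SE, adjusted p = 0.135). The summed fibroblast list ran from 1393 to 8127 CPM in the rich libraries against 858 to 1992 in the poor ones, and the highest value belonged to wild-type replicate 2. Cilp was called whichever library was left out, with an adjusted p of at most 0.0116. The other 5 calls ended without any 1 of the 4 wild-type libraries or Clpp KO replicate 2, with adjusted p up to 0.201. Some also ended without Clpp KO replicate 4 (Pi16, Loxl1), double KO replicate 3 (Pi16, Loxl1, Dpt), double KO replicate 4 (Loxl1, Dpt) or either Fgf21 KO library (Dpt). The part of connective tissue in other results was not tested.

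Cartilage and valve genes were called higher in 2 of 9 tests, where 1.36% of all genes were called. These were Cilp2 and Prg4, the lubricant lubricin, which rose by 1.73 ± 0.31 (SE, adjusted p = 0.022). The Prg4 call ended without wild-type replicate 1 or 3 or Clpp KO replicate 2 or 4 (adjusted p up to 0.133). Genes of the epicardium, the heart's outer lining, had a median of 1.70 over 14 genes, but only Clu, which is also on the atrial list, was called. The lining markers Upk3b and Msln, chosen after their values were seen, stood at 2.23 ± 1.00 (SE, adjusted p = 0.324) and 2.05 ± 0.90 (SE, adjusted p = 0.315), and Upk3b was at 27.8 and 12.7 CPM in the rich wild-type libraries against 0.285 and 0.288 in the poor. In Clpp KO, Upk3b was at 7.03 and 1.58 CPM in the rich libraries and 4.23 in the poor one, so the classes overlapped. The median log2 difference of the epicardial list was 2.76 in wild type, −0.05 in Clpp KO (6 of 14 genes positive) and 1.19 in double KO. The summed epicardial list ran from 263 to 1287 CPM in the rich libraries against 190.0 to 326 in the poor ones, and the cartilage and valve list, in which Matn3 had 0 counts throughout, from 28.7 to 329 CPM in the rich libraries against 9.90 to 24.8 in the poor ones. Of 9 lymphatic genes tested, 1 was called higher, with a list median of 0.30. It was Fgl2, which encodes a fibrinogen-like protein and rose by 1.18 ± 0.25 (SE, adjusted p = 0.045). The summed lymphatic levels overlapped, at 75.5 to 248 CPM in the rich libraries against 49.8 to 117 in the poor ones. The Fgl2 call ended in 10 of 13 fits that left out 1 library, all but those without Clpp KO replicate 3 or double KO replicate 1 or 2 (adjusted p up to 0.215). Of 7 skeletal muscle genes tested, 1 was called, Atp2a1, a calcium pump gene, which rose by 2.06 ± 0.29 (SE, adjusted p = 0.00396). The list median was 0.61 over all and −0.23 within Clpp KO, and the summed levels overlapped, at 1070.0 to 1856 CPM in the rich libraries against 1178 to 1846 in the poor ones. Hp, which encodes the haemoglobin scavenger haptoglobin, rose by 5.15 ± 0.85 (SE, adjusted p = 0.0186); wild-type replicate 4 held 149 CPM of Hp and the other rich libraries at most 11.1, and the call ended without wild-type replicate 1 or 3 (adjusted p up to 0.0908).

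Apart from Fgl2 of the lymphatic list, none of the listed vessel, blood and immune genes was called. The lists of smooth muscle (12 genes, median 0.75), pericytes (10, −0.29), endothelium (14, 0.02), endocardium (11, 0.56), macrophages (14, 0.47), lymphocytes (11, 0.14) and neutrophils and mast cells (8, 0.98) held no called gene. The 8 red cell genes had a median of −1.01, with summed levels of 508 to 9830.3 CPM in the rich libraries against 603 to 7400.5 in the poor ones. Lung epithelium and thyroid, parathyroid and thymus lists had 1 and 2 genes above the filter on low counts, none called; Bpifa1, Cldn18, Reg3g and Sftpd of the former and Krt5 and Pth of the latter had 0 counts throughout. Interferon-stimulated genes (29, 0.19), genes of the integrated stress response and serine synthesis (19, 0.24), clock genes (16, −0.19), immediate early genes (15, 0.18) and Y-linked genes (4, −0.62) held none either.

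**Figure D4:**
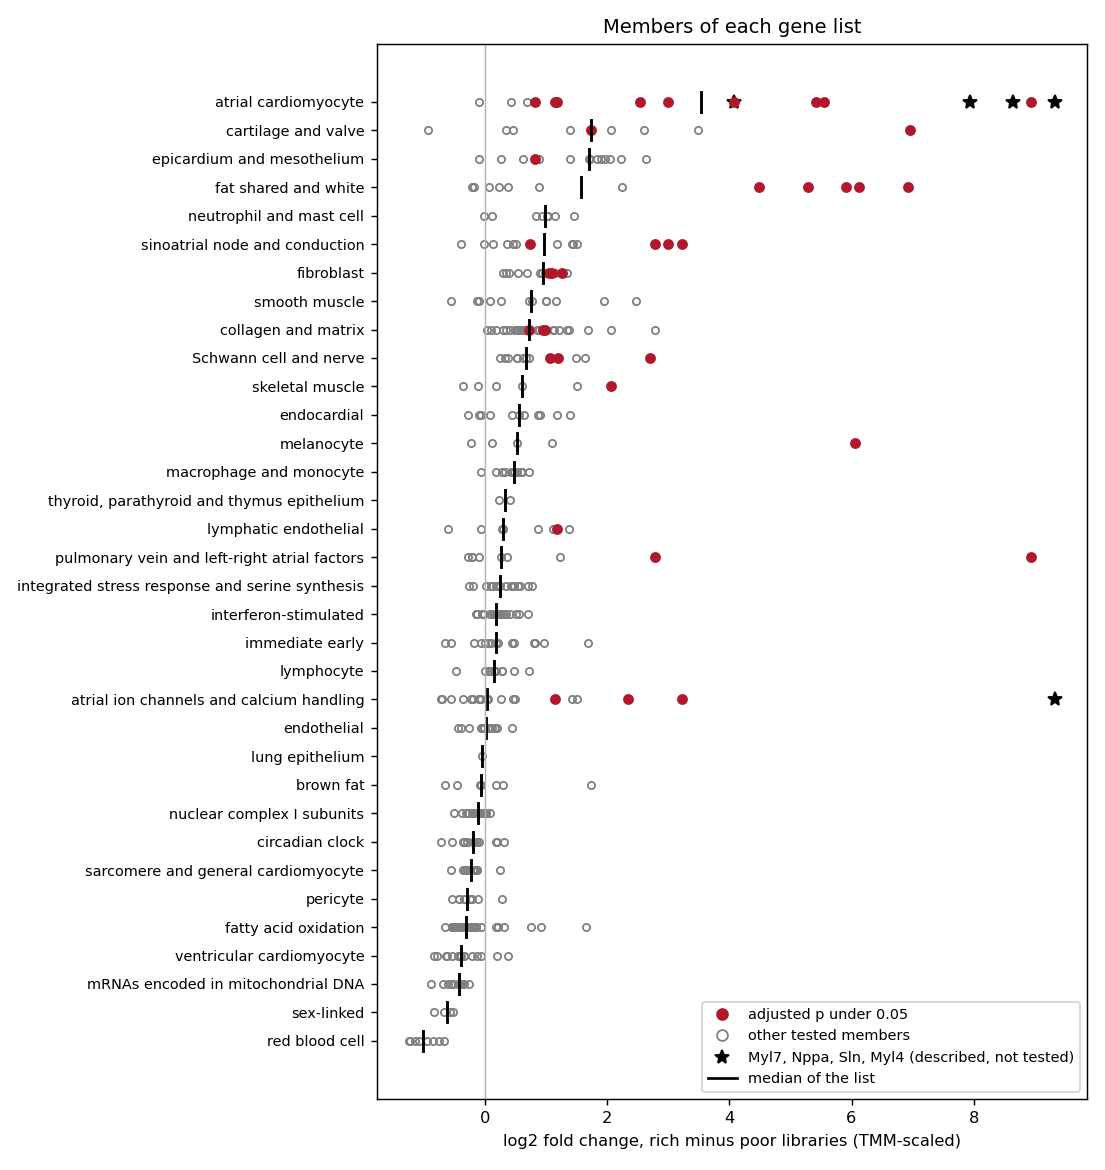
Log2 fold change between rich and poor libraries for every tested member of each gene list, ordered by the list median (black bar); filled red points were called, open grey ones were not, and black stars are the 4 markers, shown without a test. Called genes concentrate in the atrial list, with 5 in the fat list and 4 in the sinoatrial node list. Apart from the markers, the channel, fibroblast, matrix and Schwann cell lists hold 3 each. The cartilage and left-right lists hold 2 each, and the melanocyte, lymphatic, epicardial and skeletal muscle lists 1 each. The ventricular list lies at a median of −0.40.

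The single gene called lower was Scgb1c1, which encodes a small secreted protein of the secretoglobin family; it fell outside the naming rule and was chosen after its values were seen. It ran at 2.42 to 5.86 CPM in the rich libraries (median 4.27) and 4.30 to 8.11 CPM in the poor ones (median 5.57), with overlap, and fell by 0.81 ± 0.18 on the log2 scale (SE, adjusted p = 0.0446). The call ended in 11 of the 13 fits that left out 1 library, all but those without double KO replicate 1 or 4, with adjusted p up to 0.182.

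The same genes were also described in the Fgf21 KO libraries, which gave no contrast of rich against poor because both fitted ones were rich. Both entered the fit through the filter on low counts, the scaling and the spread. The called genes were thus chosen in part with these libraries, so what follows is a description and not an independent check. Replicates 2 and 4, at 194 and 587 CPM of Myl7, were set against replicates 1 and 3, at 55.4 and 52.2 CPM. Of the 193 genes called higher apart from the markers, 154 (79.8%) were higher in both of the former than in both of the latter, where 25.2% of all genes tested were. The median difference was 1.05 on the log2 scale, against 0.02 over all genes. Taken 1 library at a time, replicate 4 was above replicate 3 in 98.4% of the 193 genes and above replicate 1 in 93.8%, and replicate 2 was above them in 88.1% and 84.5%. Between replicates 1 and 3, whose Myl7 levels were close, 57.0% of the 193 genes were higher in replicate 1 (49.2% of all genes). Mybphl stood at 29.7 and 83.7 against 6.51 and 8.13 CPM, and Dkk3 at 83.4 and 111 against 8.20 and 13.7. Among the called genes named here, those without this order on library totals were Bmp10 and Hamp, the connective tissue genes Bgn, Dpt, Loxl1, Mfap5 and Pi16, and the nerve gene S100b. Hamp stood at 0.679 CPM in replicate 4 against 0.807 in replicate 3.

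**Figure D5:**
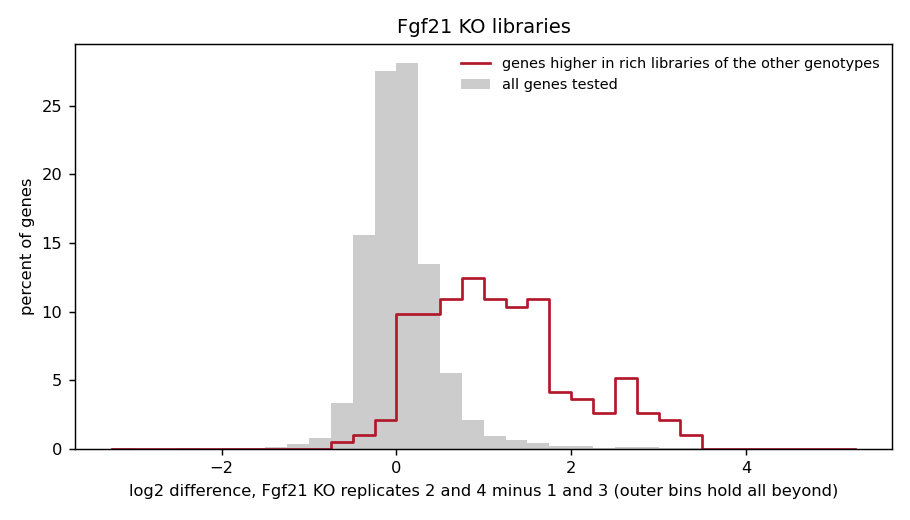
Distribution of the log2 difference between Fgf21 KO replicates 2 and 4 and replicates 1 and 3, in percent of genes, for all 14541 genes tested (grey bars) and for the 193 genes called higher in rich libraries (red line); the outer bins hold all values beyond them. The red line is centred at a median of 1.05 and the grey bars at 0.02.

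The size of the difference and the number of calls both hung on the wild-type libraries. The 193 genes had a median log2 difference between rich and poor of 2.26 in wild type, 1.14 in Clpp KO and 1.21 in double KO; their direction was fixed by the way they were chosen. In the knockout groups alone 17 genes were called, 11 of them among the 198, including Mybphl (7.31, adjusted p = 0.0168), Fgf12 (4.83, adjusted p = 0.0417), Mlana (4.82, adjusted p = 0.0168) and Cacna2d2 (3.01, adjusted p = 0.0168). In wild type alone, with 2 libraries a class, 2217 genes were called, 1325 higher and 892 lower. The count of 198 fell to 65 without wild-type replicate 1, 66 without replicate 3, 94 without replicate 2, 107 without replicate 4 and 95 without Clpp KO replicate 2, and rose to 300 without double KO replicate 2; without wild-type replicates 2 and 4 together it was 85, of which 39 were among the 198. Mybphl, Fgf12, Mlana and Cacna2d2 were called under all 26 alternatives tried.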

How the data were processed

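The mRNA of 16 heart samples was sequenced from stranded TruSeq libraries on a NovaSeq instrument, per the labels' protocols. The deposited table holds whole-number counts per gene, which the authors made with fastp 0.21.0 and kallisto 0.46.1 on GRCm38.p6, per the submitters' processing notes. These notes also name edgeR 3.32.1, DESeq2 1.30.1 and R 4.0.3. The strand setting and the step from transcripts to genes are not given in the sources used here. kallisto shares reads between similar transcripts, so near-identical genes are uncertain. Levels are CPM on library totals (36260545 to 51820727 counts). Of 36499 entries, 24625 had a count and 14541 passed edgeR's filter (count minimum 10, total minimum 15). Coordinates come from GENCODE M21 (GRCm38), which lacked 550 of the gene identifiers; 440 symbols stand on more than 1 entry.

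Classes were set by Myl7 (at least 100 CPM or under 10 CPM), and rich was tested against poor with genotype as covariate in edgeR 4.0.16 (R 4.3.3; quasi-likelihood, TMM factors 0.692 to 1.83, 8 residual degrees of freedom, biological coefficient of variation 0.214). limma 3.58.1 was loaded by edgeR. An adjusted p under 0.05 was the threshold. The test was tried on simulated data first. The classes, genes and gene lists were chosen with earlier results of these data known. The text names Clpp, Fgf21, the 4 markers, up to 12 called genes a direction with the largest fold change (mean of at least 1 CPM, classes apart, no unnamed gene model), and from each list the called members of smallest p (at most 4; with none called, 2 members); others are marked as chosen after their values were seen. The 3 libraries between the limits were shown but not tested. Alternatives covered scaling, DESeq2 1.42.0, the filter, the covariate, a replicate block, the Myl7 limits, single genotypes and each library left out. Results for some of the genes counted in the lists are not reported here.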

Additional observations from a re-analysis of the deposited data

Results flagged for a closer look

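Values were examined for single libraries far from the rest of their class, on the log2 scale after TMM scaling, in 202 groups of values. Dixon's criterion picked out 12, and chance alone picks about 1 in 20. In wild-type replicate 2, the Y-linked genes Ddx3y, Eif2s3y and Kdm5d were lowest among the rich libraries, at 0, 0.0276 and 3.97 CPM. This library also held the highest Nr2f1 level of that class, 8.60 CPM. In wild-type replicate 4, the haptoglobin gene Hp, the natriuretic peptide gene Nppb and the lubricin gene Prg4 stood highest, at 149, 469.8 and 77.5 CPM. Kcna5 was lowest in Clpp KO replicate 2, at 12.2 CPM.

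Among the poor libraries, double KO replicate 3 held the lowest Cacna2d2 level, 0.514 CPM. The next 3 extremes hold after TMM scaling and not for the CPM on library totals printed here. The fatty acid transporter gene Cd36 was highest in double KO replicate 3 (969 CPM, against 1059 and 1110 in wild-type replicates 1 and 3). Irx4 was highest in double KO replicate 4 (17.7 CPM, against 25.1 and 26.9 in wild-type replicates 1 and 3). Kdm5d was lowest in double KO replicate 2 (7.12 CPM, against 6.96 in double KO replicate 4).

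Of 100 genes compared, 4 pointed opposite ways by genotype, and all 4 are liver transcripts chosen after their values were seen. Alb, which encodes serum albumin, differed between rich and poor libraries by −5.08 (log2) in wild type, 6.11 in Clpp KO and 9.14 in double KO. For the apolipoprotein gene Apoa1 these differences were −2.86, 5.46 and 5.81, for the fibrinogen gene Fgb −3.32, 5.02 and 6.46, and for the transthyretin gene Ttr −2.57, 3.69 and 4.14. In each gene every rich wild-type library lay below every poor one, and the reverse held in Clpp KO and double KO. The difference between genotypes was not tested. Alb reached 101 CPM in double KO replicate 1, 39.5 and 39.2 in wild-type replicates 1 and 3 and 35.1 in Clpp KO replicate 2, and over all genotypes it was not called (4.44 ± 2.64, SE; edgeR adjusted p = 0.434).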

How the results depend on the processing

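The 198 calls became 206 with DESeq2's size factors in edgeR, 205 with library totals alone (which moved the median of all genes to 0.21, so that changes on that scale are read against it), 291 with no filter and 155 without the covariate. DESeq2 called 649 (604 higher, 45 lower). A single Myl7 limit gave 119 at 10 CPM and 308 at 100 CPM, and Myl7 as a continuous covariate over all 16 libraries gave 1428 (1100 higher, 328 lower). Wild type alone gave 2217 (59.8% higher), the knockout groups alone 17, wild-type replicates 1 and 3 summed 65, and, chosen after seeing the data, leaving out wild-type replicates 2 and 4 together 85. Leaving out 1 library gave 65 to 300. The cause of these shifts was not tested.

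Deviations of same-numbered libraries had correlations of −0.284 to 0.370, with 4 of 24 over 0.1. No such values are given for libraries of unlike number, so whether the numbers pair libraries is not settled. The fit with a replicate block called 343 (324 higher, 19 lower). The difference in the share of mitochondrially encoded mRNAs was 0.325 points in the knockout groups alone, and −6.16 to −3.24 with 1 library left out. In wild type alone, Alb (−5.09), Fgb (−3.51) and Ttr (−2.67) reversed. Of 2604 values for named genes under the alternatives, 2257 kept direction and side of the threshold, 266 lost the call, 78 gained one and 3 reversed. Of 884 counts of called list members 207 moved, as did 79 of 850 list medians. Depth limits Hamp, Ucp1 and other genes with few counts in the poor libraries.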
